A study of Mus musculus with 12 samples.

Results

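The genes described here encode integrins and cadherins, the 2 large families of receptors by which cells hold on to matrix and to each other. They were chosen by symbol alone, as every Itga, Itgb and numbered Cdh gene, which gave 49 genes: 26 integrins and 23 cadherins, of 23235 entries measured in liver and 24421 measured in fibroblasts. Both families were complete in both tissues. RNA sequencing compared G2A with WT mice in 2 tissues. The G2A livers came from embryos homozygous for the Rpt2 G2A allele (Rpt2G2A/G2A) and the WT livers from their littermates, all at E12.5, with 3 livers per genotype. The other material was immortalized mouse embryonic fibroblasts (MEFs), a cultured fibroblast preparation, G2A or WT, with 2 G2A libraries and 3 WT libraries used here. The 4 labelled groups hold 3 samples each, and the third G2A MEF sample was not analysed here. No sample was treated. Rpt2 is a proteasome ATPase subunit encoded by Psmc1, and the G2A allele replaces the glycine that carries its N-myristoyl lipid anchor. The labels do not say how many lines or cultures the MEF libraries came from, so the p-values for MEFs measure only the spread between these libraries, which may be technical.

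As background, an integrin is a pair of an alpha and a beta chain that spans the membrane, binds matrix proteins or receptors on other cells outside, and couples to actin inside through talin and kindlin. Itgb1 pairs with the widest range of alpha chains. These include collagen receptors (Itga1, Itga2, Itga10, Itga11), laminin receptors (Itga3, Itga6, Itga7) and receptors for the RGD motif of fibronectin and related proteins (Itga5, Itga8, Itgav). Classical cadherins bind like to like between neighbouring cells in the presence of calcium and are tied to actin by catenins. In fetal liver, hepatoblasts form an epithelium with E-cadherin (Cdh1), and blood cells lodge in the tissue partly through Itga4 and Itgb1.

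Psmc1 itself was measured at 151, 145 and 161 FPKM (fragments per kilobase of transcript, scaled to the size of the library) in G2A livers, against 178, 181 and 178 FPKM in WT livers. In MEFs it had 10658 and 10913 normalized reads in G2A, against 7393, 8589 and 6485 in WT. A level does not show which allele a library carries. Liver columns summed to between 792987 and 840762 FPKM, and their read depth is unknown. MEF libraries held between 36415586 and 37695116 reads in genes. In each tissue 1 library stood apart from its own genotype. On the first principal component of liver values, which held 37.9% of the variance, G2A liver 3 scored -7.91, against 30.6 and 34.9 for the other G2A livers and -23.3 to -13.3 for WT livers. On that of MEFs, with 73.4% of the variance, the G2A libraries scored 51.5 and 55.2, and WT MEF 3 scored 72.5 while the other WT libraries scored -87.2 and -92.0. Results are therefore given with and without G2A liver 3 and WT MEF 3. Both were picked from these same values because they lay toward the other genotype. Leaving them out therefore tends to widen the difference between genotypes, and adjusted p-values from those fits are not a separate test.

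In livers, Itgb1 had higher values in every G2A liver than in any WT liver, but neither it nor any other member passed the test across all genes. Of the 26 integrins 17 reached 1 FPKM in at least 3 livers and were tested, and of the 23 cadherins 6 were tested. With limma and Benjamini-Hochberg adjustment over 12938 genes at a threshold of 0.05, 0 of these 23 members passed. Among all genes 0.0155% passed with higher and 0.00773% with lower values in G2A livers. At an unadjusted p under 0.05 there was 1 member, Itgb1, with higher values in G2A livers and 0 with lower values, where the background was 9.07% of all genes higher and 12.4% lower. Fold changes in livers are on the log2(FPKM + 1) scale, which understates the change of genes at low values. The 17 integrins had a median log2 fold change of 0.14, with 12 above 0 and 5 below. The 6 cadherins had a median of 0.23, with all 6 above 0, and without the low-value filter the median over cadherins was -0.0039. The median over all genes was 0.01, with 52.7% of genes above 0 and 47.3% below.

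Itgb1, the common beta chain, was measured at 143, 152 and 119 FPKM in G2A livers, against 110, 108 and 101 FPKM in WT livers. The groups did not overlap, and G2A liver 3 lay nearest to the WT livers. The mean was 138 ± 17.0 FPKM in G2A livers and 106 ± 4.46 FPKM in WT livers (SD, n = 3 each), a log2 fold change of 0.37 (SE 0.10) with an adjusted p of 0.130 by limma. Without G2A liver 3 it was 0.47 with a limma adjusted p of 0.0109, and over 14 other settings the adjusted p lay between 0.00292 and 0.376. The gene lies on chromosome 8 at 131209554 to 131257100 of NCBIM37, on the plus strand. Its promoter is shown because Itgb1 was the member with the smallest unadjusted p in livers. The 250 bases before its annotated start (RefSeq, GRCm38.p6, chr8:128685404-128685653, plus strand) are 68.0% G or C, against a median of 52.4% over 32851 promoters. The capitals mark a GC box, the letters GGGCGG, at position -151 from the start. On either strand GGGCGG was found in 32.7% of all promoters of this length. These promoter windows describe the genes and were not measured in the study.
Itgb1 promoter: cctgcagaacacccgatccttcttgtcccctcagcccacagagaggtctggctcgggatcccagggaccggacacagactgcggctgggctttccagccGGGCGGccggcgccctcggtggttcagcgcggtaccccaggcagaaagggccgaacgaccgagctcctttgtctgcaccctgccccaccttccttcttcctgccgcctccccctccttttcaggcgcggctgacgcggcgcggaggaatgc

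Itgb1 held 42.5%, 42.8% and 36.2% of the summed integrin FPKM in G2A livers, against 36.4%, 35.9% and 36.1% in WT livers. The share in G2A liver 3 fell within the WT range. The 12 alpha chains that can pair with Itgb1 summed to between 98.4 and 101 FPKM in G2A livers, against 91.9 to 100.6 FPKM in WT livers. All beta chains together summed to 202, 216 and 183 FPKM in G2A livers, against 165, 167 and 153 FPKM in WT livers, which did not overlap. In bulk tissue, fewer cells of a type and less RNA per cell cannot be told apart, and this holds for every liver value here.

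**Figure D1:**
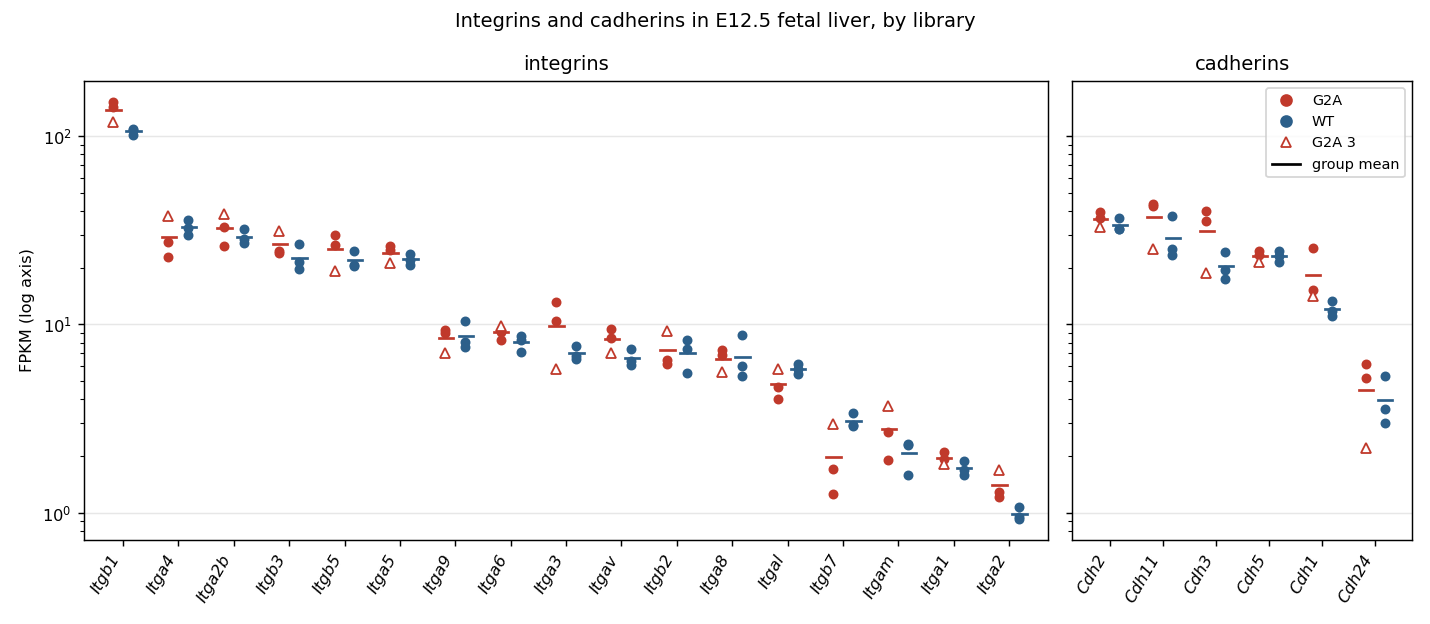
Values of the integrins and cadherins tested in livers, in FPKM on a log axis, with 1 point per liver, G2A left of WT for each gene, an open triangle for G2A liver 3 and a line at each group mean. Itgb1 is highest at 119 to 152 FPKM in G2A livers and 101 to 110 FPKM in WT livers, while most other members overlap between the genotypes.

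Among the alpha chains that bind collagen and laminin, Itga2 also had groups that did not overlap. Itga2, a collagen receptor chain of platelets and epithelia, had 1.21, 1.28 and 1.69 FPKM in G2A livers, against 1.07, 0.950 and 0.925 FPKM in WT livers. Its log2 fold change of 0.27 had a limma adjusted p of 0.260. It reached the minimum of 1 FPKM in 3 G2A livers but only 1 WT liver. Its values lie near that minimum, and it passed the low-value filter mainly through the G2A livers. Itgb1 and Itga2 were 2 of 17 integrins without overlap and with higher values, beside 0 with lower values. Among all genes 11.8% were without overlap higher and 15.7% lower. Itga3, the alpha chain of an epithelial laminin receptor, had 10.4, 13.2 and 5.79 FPKM in G2A livers, against 7.70, 6.78 and 6.55 FPKM in WT livers. G2A livers 1 and 2 were above every WT liver and G2A liver 3 below all of them. The log2 fold change was 0.37 with an adjusted p of 0.449, and without G2A liver 3 it was 0.67 with an adjusted p of 0.0186 (limma in both). Itga6, a laminin receptor chain of epithelial and progenitor cells, overlapped, with a log2 fold change of 0.16.

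Of the receptors for RGD ligands, Itgav, which pairs with several beta chains and activates latent TGF-beta, had 9.45, 8.46 and 7.06 FPKM in G2A livers, against 7.39, 6.36 and 6.11 FPKM in WT livers. Only G2A liver 3 lay inside the WT range. Its log2 fold change was 0.29 with an adjusted p of 0.246, and without G2A liver 3 it was 0.39 with an adjusted p of 0.0449 (limma in both). Itga5, the fibronectin receptor chain, had a log2 fold change of 0.11 and Itgb5, a partner of Itgav, one of 0.17, both with overlapping groups. Without G2A liver 3 that of Itgb5 was 0.34 with a limma adjusted p of 0.0558.

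The pair that marks platelets and their precursors, Itga2b and Itgb3, overlapped between the genotypes. Itga2b had 26.2, 33.0 and 38.4 FPKM in G2A livers, against 28.3, 32.3 and 26.9 FPKM in WT livers, and Itgb3 had 23.8, 24.6 and 31.4 FPKM, against 21.4, 26.6 and 19.7 FPKM. Both were highest in G2A liver 3. The 8 megakaryocyte markers summed to between 548 and 705 FPKM in G2A livers, against 529 to 634 FPKM in WT livers. The ratio of Itga2b to Itgb3 was 1.10, 1.34 and 1.22 in G2A livers and 1.32, 1.21 and 1.37 in WT livers.

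Several leukocyte integrins had lower values in G2A livers 1 and 2. Itgb7, a beta chain that pairs with Itga4 in homing of lymphocytes to gut and with Itgae, had 1.26, 1.70 and 2.94 FPKM in G2A livers, against 2.87, 2.90 and 3.38 FPKM in WT livers. G2A livers 1 and 2 were below every WT liver and G2A liver 3 was among them. The log2 fold change was -0.49 (SE 0.21) with an adjusted p of 0.249, and -0.71 with an adjusted p of 0.0182 without G2A liver 3 (limma in both). Itgal, the alpha chain of LFA-1 on leukocytes, had 4.66, 4.01 and 5.82 FPKM in G2A livers, against 5.78, 5.47 and 6.15 FPKM in WT livers, a log2 fold change of -0.23 with a limma adjusted p of 0.345. Without G2A liver 3 its adjusted p was 0.0485. Itga4, the VCAM-1 and fibronectin receptor chain of blood cells, had 27.5, 22.7 and 37.6 FPKM in G2A livers, against 30.0, 35.7 and 32.6 FPKM in WT livers. G2A livers 1 and 2 were below the WT livers and G2A liver 3 above them. Its log2 fold change was -0.18 with an adjusted p of 0.572, and -0.37 with an adjusted p of 0.0559 without G2A liver 3 (limma in both). The chains of the other leukocyte receptors, Itgam and Itgb2, had log2 fold changes of 0.28 and 0.04 with overlapping groups. The 8 macrophage markers measured summed to between 109 and 138 FPKM in G2A livers, against 112 to 151 FPKM in WT livers.

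All 6 cadherins tested in livers had fold changes above 0, led by Cdh3 and Cdh1. Cdh1, the E-cadherin of epithelia, had 15.2, 25.5 and 14.2 FPKM in G2A livers, against 11.8, 11.1 and 13.4 FPKM in WT livers. It was 1 of the 6 cadherins, with higher values in G2A livers, whose groups did not overlap, beside 11.8% of all genes. The mean was 18.3 ± 6.25 FPKM in G2A livers and 12.1 ± 1.18 FPKM in WT livers (SD, n = 3 each), a log2 fold change of 0.52 (SE 0.22) with an adjusted p of 0.239 by limma, and 0.0678 without G2A liver 3. The 8 hepatoblast markers summed to between 9206 and 12886 FPKM in G2A livers, against 9189 to 11458 FPKM in WT livers, a sum made mostly of Afp and Alb. Of these 8 markers 5 had fold changes above 0, and 3 had an unadjusted p under 0.05 with higher values and 0 with lower values, where the share of all genes was 9.07% higher and 12.4% lower. These 3 were Dlk1 and the keratins of simple epithelia, Krt8 and Krt18. The 3 markers with log2 fold changes below 0 were Apoa1 (-0.35), Ttr (-0.33) and Alb (-0.13). Krt8 averaged 101 ± 48.3 FPKM in G2A livers and 52.6 ± 6.86 FPKM in WT livers (SD, n = 3 each), a log2 fold change of 0.84 with a limma adjusted p of 0.207. Krt18 averaged 104 ± 39.7 FPKM in G2A livers and 63.8 ± 0.905 FPKM in WT livers (SD, n = 3 each), a log2 fold change of 0.63 with a limma adjusted p of 0.222. The part of hepatoblasts or other epithelium in the values of Cdh1 was not tested.

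Cdh3, the P-cadherin of placenta and other epithelia, had 35.3, 39.8 and 18.8 FPKM in G2A livers, against 24.2, 19.5 and 17.5 FPKM in WT livers. G2A liver 3 lay inside the WT range. The log2 fold change was 0.54 (SE 0.28) with an adjusted p of 0.318, and 0.86 with an adjusted p of 0.0157 without G2A liver 3 (limma in both). Cdh3 and Cdh1 are neighbours on chromosome 8, separated by 46442 bases of NCBIM37, at 109034791 to 109080808 and 109127251 to 109194146 on the plus strand. Cdh11, the cadherin of mesenchyme, had 42.3, 43.3 and 25.2 FPKM in G2A livers, against 37.8, 23.3 and 25.3 FPKM in WT livers, and its log2 fold change of 0.34 had a limma adjusted p of 0.476. Without G2A liver 3 it was 0.59 with a limma adjusted p of 0.0795. Cdh2, the N-cadherin of mesenchyme, nerve and hepatocytes, had a log2 fold change of 0.11. Cdh5, the VE-cadherin of endothelium, had 23.5, 24.5 and 21.5 FPKM in G2A livers, against 24.4, 21.5 and 23.1 FPKM in WT livers, a difference smaller than the spread between livers.

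Of the marker lists given next, the mesenchyme and endothelium sums did not overlap between the genotypes, and the other sums did. The 8 mesenchyme markers summed to between 802 and 1608 FPKM in G2A livers, against 367 to 538 FPKM in WT livers. This sum was made mostly of the matrix genes Col1a1, Col3a1, Lum and Dcn, with log2 fold changes of 1.12 to 1.61. Those of Pdgfrb (0.37), Pdgfra (0.13), Des (0.09) and Lhx2 (-0.08) were smaller. Of the 8 markers 7 had fold changes above 0, where 52.7% of all genes were above 0. The 6 mesothelium markers summed to between 55.2 and 142 FPKM in G2A livers, against 47.8 to 58.8 FPKM in WT livers, with G2A liver 3 inside the WT range. The 10 endothelium markers summed to between 179 and 201 FPKM in G2A livers, against 154 to 164 FPKM in WT livers. At an unadjusted limma p under 0.05, 4 mesenchyme, 4 mesothelium and 5 endothelium markers had higher values in G2A livers and 0 had lower values. The background was 9.07% of all genes higher and 12.4% lower. The blood lists overlapped between the genotypes. The 7 granulocyte markers summed to between 298 and 686 FPKM in G2A livers, against 232 to 482 FPKM in WT livers. The 6 progenitor markers summed to between 58.0 and 96.3 FPKM in G2A livers, against 63.7 to 73.4 FPKM in WT livers. Erythroid sums were lower in G2A livers 1 and 2. The 8 erythroid markers summed to 1633, 1410 and 2716 FPKM in G2A livers, against 2584, 2110 and 2959 FPKM in WT livers. All 8 had fold changes below 0, with a median of -0.45, where 47.3% of all genes were below 0. Of these 8 markers 3 had an unadjusted limma p under 0.05 with lower values, where the share of all genes was 12.4%. In the sum, only G2A livers 1 and 2 lay below the WT range. The 6 neural markers summed to between 8.73 and 23.5 FPKM in G2A livers, against 19.0 to 35.2 FPKM in WT livers. Only G2A liver 3 lay below the WT range. Of 5 neural markers tested 4 had fold changes below 0, and Ncam1 had a log2 fold change of 0.40. In the mesenchyme, mesothelium, endothelium, erythroid and neural lists no marker was at 0 in every liver. The part of these cell types in the values of Itgb1, Itga4, Cdh3 and Cdh11 was not tested.

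Without G2A liver 3, 3 integrins (Itga3, Itgav and Itgb1) passed with higher and 2 (Itgal and Itgb7) with lower values in G2A livers, as did 1 cadherin, Cdh3, with higher values. The background in that fit was 12.4% of all genes higher and 12% lower. With weights estimated for each library, 7 integrins and 3 cadherins passed, where 26.1% of all genes passed with higher and 20.7% with lower values. G2A liver 3 lay nearer to the WT mean than to the mean of the other G2A livers for 12 of 17 integrins (70.6%) and all 6 cadherins, and for 65.6% of all genes tested.

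**Figure D2:**
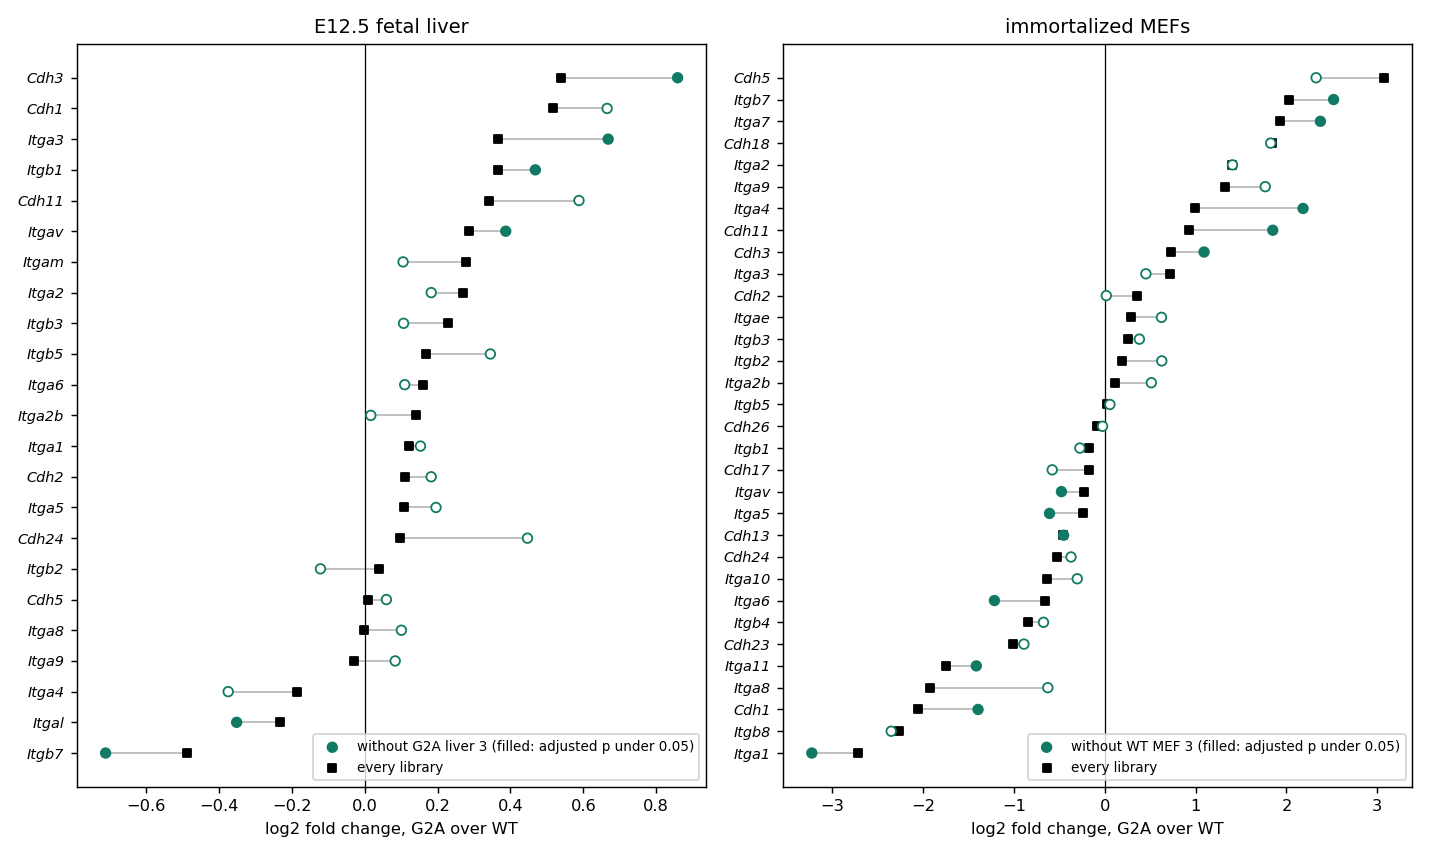
Log2 fold changes of G2A over WT for the members tested, with every library (squares) and without 1 library (circles, filled where the limma adjusted p was under 0.05), G2A liver 3 for livers and WT MEF 3 for MEFs. Cdh3 in livers is at 0.86 without G2A liver 3, against 0.54 with it, and Itga1 in MEFs is at -3.23 without WT MEF 3, against -2.71 with it.

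Genes that act with these receptors were counted from 3 lists, and 0 of their members passed in livers. Of 23 integrin ligands tested 20 had fold changes above 0, with a median of 0.32, and 8 had an unadjusted p under 0.05 with higher values and 1 with lower, where the share of all genes was 9.07% higher and 12.4% lower. Fn1, fibronectin, averaged 149.9 ± 20.1 FPKM in G2A livers and 90.7 ± 3.90 FPKM in WT livers (SD, n = 3 each), a log2 fold change of 0.71 with a limma adjusted p of 0.0902. Postn, periostin, averaged 202.6 ± 95.8 FPKM in G2A livers and 37.5 ± 14.4 FPKM in WT livers (SD, n = 3 each). Of 23 adaptors and kinases that join integrins to actin 16 were above 0, with a median of 0.06, and 1 (Tns1) had an unadjusted p under 0.05, with higher values in G2A livers. Of 14 catenins and other cadherin partners 10 were above 0, with a median of 0.11, and 0 had an unadjusted p under 0.05.

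The 9 integrins and 17 cadherins left out in livers were at low values, at most 0.834 FPKM for Itgb4 and 1.87 FPKM for Cdh13. Among them Itgb4, the beta chain of hemidesmosomes, had 0.741, 0.834 and 0.529 FPKM in G2A livers, against 0.502, 0.340 and 0.520 FPKM in WT livers, with every G2A liver higher. Itgae, Cdh6, Cdh12 and Cdh26 had lower values in every G2A liver than in any WT liver. Cdh6 for example had 0.490, 0.457 and 0.195 FPKM in G2A livers, against 1.33, 0.820 and 0.502 FPKM in WT livers. These members were not tested and their depth is unknown. Among all genes tested 11.8% were without overlap higher and 15.7% lower. The share among untested genes was not counted.

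In MEFs, the collagen receptor chains Itga1 and Itga11 had lower values in both G2A libraries than in any WT library, and the laminin receptor chain Itga7 and the beta chain Itgb7 had higher values. No member passed the test across all genes. Of 26 integrins 21 reached 10 normalized reads in at least 2 libraries and were tested, and of 23 cadherins 11. With limma and adjustment over 13241 genes, 0 of these 32 members passed, and of all genes 0% passed in either direction. With edgeR on whole reads recovered from the normalized values 0 members and 0 genes passed as well. At an unadjusted p under 0.05 there were 4 members with higher values in G2A MEFs (Itga7, Itgb7, Cdh5 and Cdh18) and 5 with lower values (Itga1, Itga11, Cdh1, Cdh13 and Cdh24), where the background was 6.9% of all genes higher and 7.48% lower. Cdh5 passed the low-value filter only through its G2A libraries and so could be tested only if it was higher there; its place in this count follows from the filter. Fold changes in MEFs are on the log2(normalized reads + 1) scale. The 21 integrins had a median of 0.02, ranging between -2.71 and 2.03 with 11 above 0 and 10 below, and the 11 cadherins a median of -0.08, ranging between -2.05 and 3.07 with 5 above 0 and 6 below, the top of the range being Cdh5. The median over all genes was 0.01, with 51.6% of genes above 0 and 48.4% below.

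Of the collagen receptors, Itga1, the collagen IV receptor chain of mesenchyme and smooth muscle, had 50.3 and 37.3 normalized reads in G2A MEFs, against 550, 311 and 142 in WT MEFs. The groups did not overlap, and WT MEF 3 was the lowest of its group. The mean was 43.8 ± 9.22 in G2A MEFs (SD, n = 2) and 334 ± 205 in WT MEFs (SD, n = 3), a log2 fold change of -2.71 (SE 0.61) with a limma adjusted p of 0.269, and -3.23 with an adjusted p of 0.00354 without WT MEF 3. Itga11, the fibrillar collagen receptor chain of fibroblasts, had 127 and 167 normalized reads in G2A MEFs, against 421, 361 and 780 in WT MEFs. Its groups did not overlap either, and here WT MEF 3 was the highest. The log2 fold change was -1.75 (SE 0.39) with a limma adjusted p of 0.269, and -1.42 with an adjusted p of 0.0107 without WT MEF 3. The remaining collagen receptor chains had fold changes of 1.40 (Itga2) and -0.64 (Itga10), with overlapping groups. Itga2 and Itga1 are neighbours on chromosome 13, separated by 26037 bases, both on the minus strand.

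Of the laminin receptors, Itga7, a chain of muscle and its precursors, had 3527 and 2538 normalized reads in G2A MEFs, against 544, 611 and 1441 in WT MEFs. Both G2A libraries were above every WT library, of which WT MEF 3 was the highest. It had a log2 fold change of 1.93 (SE 0.46) with a limma adjusted p of 0.269, and 2.37 with an adjusted p of 0.00137 without WT MEF 3. Itga3 had 6814 and 5999 normalized reads in G2A MEFs, against 4103, 5321 and 2677 in WT MEFs, without overlap, and its log2 fold change of 0.72 had a limma adjusted p of 0.357. Without WT MEF 3 it was 0.45 with a limma adjusted p of 0.0799. Itga6 had 2128 and 2050 normalized reads in G2A MEFs, against 4211, 5592 and 1511 in WT MEFs, so that the G2A libraries lay below WT MEFs 1 and 2 and above WT MEF 3. Its log2 fold change was -0.66, and -1.22 with a limma adjusted p of 0.00521 without WT MEF 3.

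Itgb7 had 160 and 120 normalized reads in G2A MEFs, against 21.6, 25.1 and 66.7 in WT MEFs. WT MEF 3 again lay between the other WT libraries and the G2A libraries. This gave a log2 fold change of 2.03 (SE 0.60) with a limma adjusted p of 0.291, and 2.52 with an adjusted p of 0.0055 without WT MEF 3. Among the integrins of the MEFs 4 had higher values without overlap (Itga7, Itgb7, Itga3 and Itga9) and 4 had lower values without overlap (Itga1, Itga11, Itgb8 and Itgb4), beside 18.9% of all genes higher and 18% lower. Itgb8, which with Itgav activates latent TGF-beta, had 8.88 and 0.980 normalized reads in G2A MEFs, against 27.8, 16.7 and 17.9 in WT MEFs, and passed the low-value filter only through its WT libraries. The promoters of Itga1, Itga11 and Itgb7 are shown because these integrins had an unadjusted p under 0.05 in MEFs and are among the 31 of 49 members listed in the RefSeq table of promoters. They are the 250 bases before the start in GRCm38.p6: Itga1 at chr13:115101965-115102214 on the minus strand, Itga11 at chr9:62677605-62677854 on the plus strand and Itgb7 at chr15:102231936-102232185 on the minus strand. Capitals mark an E-box, the letters CAGGTG, at position -121 of Itga11, which on either strand occurs in 17.2% of all promoters of this length. A TATA box, the letters TATAAA on either strand, was found in 0 of the 31 member promoters and in 12.4% of all promoters. The windows of Itga1 and Itgb7 hold none of these 3 motifs, which says only that the letters are not in these windows.
Itga1 promoter: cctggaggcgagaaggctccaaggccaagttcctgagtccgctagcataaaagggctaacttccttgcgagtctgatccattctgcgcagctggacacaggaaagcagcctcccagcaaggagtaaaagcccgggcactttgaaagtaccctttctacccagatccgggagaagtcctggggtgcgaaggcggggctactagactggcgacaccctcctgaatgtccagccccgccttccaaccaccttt
Itga11 promoter: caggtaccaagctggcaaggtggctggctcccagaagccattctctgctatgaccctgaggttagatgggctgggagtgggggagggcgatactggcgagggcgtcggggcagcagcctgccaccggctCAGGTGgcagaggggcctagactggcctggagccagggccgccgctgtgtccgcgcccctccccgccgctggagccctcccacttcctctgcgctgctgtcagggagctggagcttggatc
Itgb7 promoter: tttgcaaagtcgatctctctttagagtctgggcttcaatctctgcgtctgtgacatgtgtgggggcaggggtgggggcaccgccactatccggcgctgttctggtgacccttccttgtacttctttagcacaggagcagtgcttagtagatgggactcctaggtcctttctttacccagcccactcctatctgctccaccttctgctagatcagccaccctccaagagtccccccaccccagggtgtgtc

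**Figure D3:**
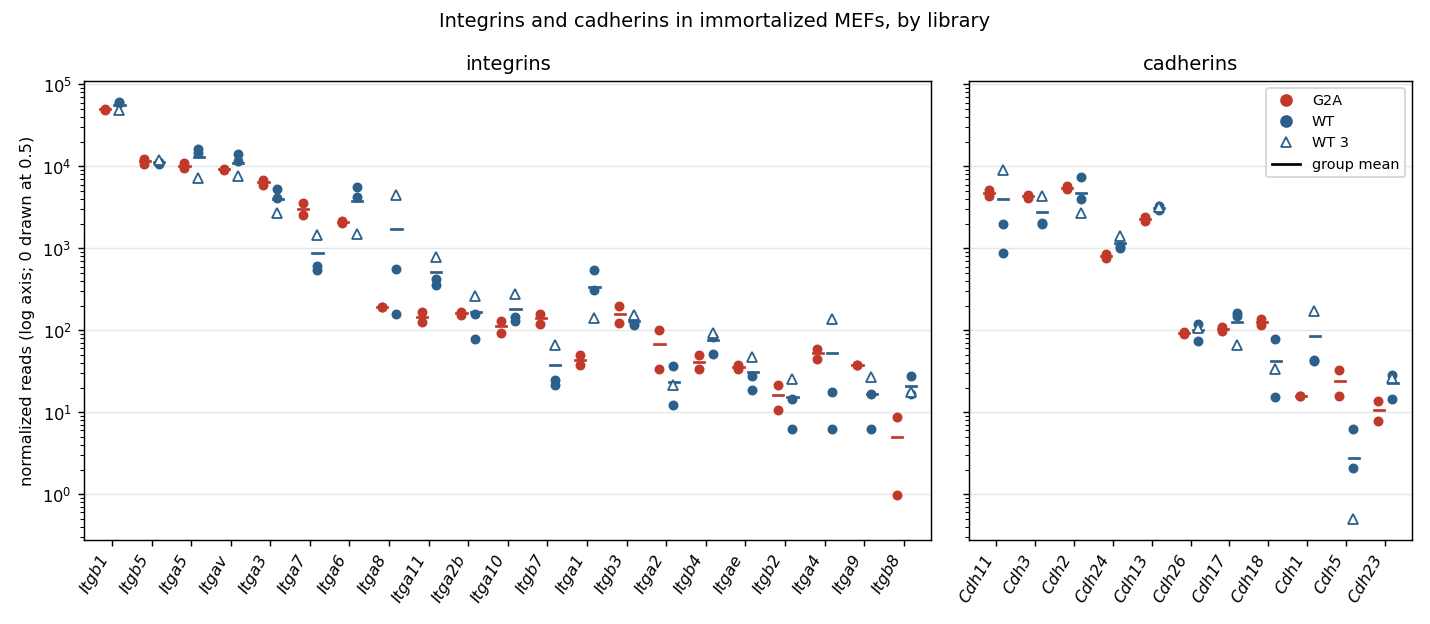
Values of the integrins and cadherins tested in MEFs, in normalized reads on a log axis with 0 drawn at 0.5, with 1 point per library, G2A left of WT for each gene, an open triangle for WT MEF 3 and a line at each group mean. The G2A points of Itga1 lie at 37.3 and 50.3 normalized reads and its WT points at 142 to 550, while those of Itgb1 all lie between 48349 and 61159.

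In normalized reads per kilobase of exon, the highest integrins in MEFs were Itgb1, Itgb5 and Itga5. Itgb1 had 48424 and 50436 normalized reads in G2A MEFs, against 61159, 58448 and 48349 in WT MEFs, a log2 fold change of -0.17 with a limma adjusted p of 0.681. Without WT MEF 3 it was -0.27 with a limma adjusted p of 0.125, and with library weights -0.29 with a limma adjusted p of 0.0403. Itgb5 had a log2 fold change of 0.02. Itga5 had 9541 and 10922 normalized reads in G2A MEFs, against 14735, 16453 and 7294 in WT MEFs, and Itgav had 9002 and 9348, against 11702, 13952 and 7570. In both genes the G2A libraries lay below WT MEFs 1 and 2 and above WT MEF 3. Their log2 fold changes were -0.24 and -0.23, and without WT MEF 3 they were -0.61 and -0.48 with limma adjusted p of 0.0163 and 0.0331. Itgb1 held 56.5% and 58.8% of the summed integrin level per kilobase in G2A MEFs, against 61.2%, 58.5% and 60.1% in WT MEFs.

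Several other alpha chains had their highest value in WT MEF 3, among them Itga2b, Itga10, Itgae, Itga4 and Itga8. Itga4 had 59.2 and 45.1 normalized reads in G2A MEFs, against 17.5, 6.26 and 136 in WT MEFs. Itga8, a nephronectin receptor chain, had 190 and 193 in G2A MEFs, against 554, 159 and 4435 in WT MEFs. In both genes WT MEF 3 was above every other library, and the groups overlapped. Without it Itga4 had a log2 fold change of 2.18 with a limma adjusted p of 0.0437, against 0.99 with it. With every library edgeR gave -0.037 for Itga4.

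Cadherins in MEFs were dominated per kilobase by Cdh11, Cdh3 and Cdh2, which held 82.9% and 83.2% of the summed cadherin level in G2A MEFs, against 65.3%, 69.5% and 79.7% in WT MEFs. Cdh3 had 4444 and 4167 normalized reads in G2A MEFs, against 1995, 2040 and 4330 in WT MEFs. WT MEF 3 was level with the G2A libraries. Its log2 fold change was 0.73 with a limma adjusted p of 0.421, and 1.09 with an adjusted p of 0.00158 without WT MEF 3. Cdh11 had 5185 and 4406 normalized reads in G2A MEFs, against 1988, 884 and 8970 in WT MEFs, with WT MEF 3 above all other libraries. Its log2 fold change was 0.93, and 1.85 with a limma adjusted p of 0.0212 without WT MEF 3. Cdh2 overlapped, with a log2 fold change of 0.35, and 0.02 without WT MEF 3.

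Cdh1 had 15.8 and 15.7 normalized reads in G2A MEFs, against 42.2, 43.8 and 172 in WT MEFs, which are 16 and 16 recovered reads against 41, 42 and 183. The groups did not overlap, and WT MEF 3 was the highest library. It had a log2 fold change of -2.05 (SE 0.75) with a limma adjusted p of 0.329, and -1.40 with an adjusted p of 0.0444 without WT MEF 3. Cdh13, a cadherin without a transmembrane segment that is anchored by a lipid, had 2384 and 2150 normalized reads in G2A MEFs, against 3268, 2945 and 3159 in WT MEFs. It had the smallest standard error of these, with a log2 fold change of -0.46 (SE 0.11) and a limma adjusted p of 0.269, and -0.45 with an adjusted p of 0.0322 without WT MEF 3. Cdh24 had 855 and 757 normalized reads in G2A MEFs, against 1070, 1015 and 1420 in WT MEFs, and Cdh18 had 115 and 138, against 15.5, 77.2 and 33.8. Of the 11 cadherins 2 had higher values without overlap (Cdh5 and Cdh18) and 4 had lower values without overlap (Cdh1, Cdh13, Cdh23 and Cdh24), where the share of all genes was 18.9% higher and 18% lower. Cdh5 passed the low-value filter only through its G2A libraries, so its place among the 2 follows from the filter.

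Cdh5 had 32.5 and 15.7 normalized reads in G2A MEFs, against 2.06, 6.26 and 0 in WT MEFs, which are 33 and 16 recovered reads against 2, 6 and 0. The 10 endothelium markers summed to 604 and 527 normalized reads in G2A MEFs, against 595, 635 and 1232 in WT MEFs, and Tie1, Emcn and Lyve1 were at 0 in every MEF library. The 12 cadherins that were not tested in MEFs reached at most 5.92 normalized reads (Cdh4), and 9 of them were at 0 in every library. The 5 untested integrins reached at most 9.40 normalized reads (Itgax).

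The 9 fibroblast markers were all present in MEFs and were at lower summed levels in G2A. They summed to 512765 and 508638 normalized reads in G2A MEFs, against 1267387, 1047279 and 665359 in WT MEFs, and 6 of the 9 had fold changes below 0, with a median of -1.04. The 6 mesothelium markers summed to 18365 and 14198 in G2A MEFs, against 2734, 4421 and 7181 in WT MEFs. These sums were made mostly of Msln (1402 to 14921 over the MEF libraries) and Krt19 (1310 to 3439). Only 3 of the 6 were tested, 2 with fold changes above 0 and 1 below, at -2.58. Gpm6a was at 0 in every MEF library. The part of fibroblasts or mesothelium in the values of Itga1, Itga11, Itga7 and Cdh3 was not tested.

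Without WT MEF 3, which lay nearer to the G2A mean than to the mean of the other WT libraries for 13 of 21 integrins (61.9%), 3 of 11 cadherins (27.3%) and 57.4% of all genes, 12 members passed. Integrins with higher values in G2A MEFs were Itga4, Itga7 and Itgb7, and those with lower values were Itga1, Itga5, Itga6, Itga11 and Itgav. The cadherins were Cdh3 and Cdh11 with higher and Cdh1 and Cdh13 with lower values. The background in that fit was 11.7% of all genes higher and 11.5% lower. With library weights 15 integrins and 7 cadherins passed, where 23.8% of all genes passed with higher and 22.5% with lower values.

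Among the partner lists in MEFs 0 members passed. Of 19 integrin ligands tested 5 had fold changes above 0 and 14 below, with a median of -0.47, and 3 had an unadjusted p under 0.05 with higher and 5 with lower values, where the share of all genes was 6.9% higher and 7.48% lower. Lamb2, a laminin beta chain, averaged 11023 normalized reads in G2A MEFs and 26199 in WT MEFs, a log2 fold change of -1.24 with a limma adjusted p of 0.260. Of 22 adaptors and kinases 6 were above 0 and 16 below, with a median of -0.10. Parvb, a parvin that binds integrin-linked kinase, averaged 1421 ± 158 normalized reads in G2A MEFs (SD, n = 2) and 67.5 ± 88.9 in WT MEFs (SD, n = 3), with a limma adjusted p of 0.274. Lims2, a PINCH adaptor, averaged 106 ± 10.7 in G2A MEFs (SD, n = 2) and 569 ± 89.9 in WT MEFs (SD, n = 3), with a limma adjusted p of 0.210. Of 15 catenins and other cadherin partners 7 were above 0 and 8 below, with a median of -0.10.

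The G2A effect was then compared between livers and MEFs as the liver log2 fold change minus that in MEFs, over 10818 genes tested in both. Of 21 members 0 passed, where 1.34% of all genes passed with a higher and 0.869% with a lower effect in liver. Itga1 had the smallest adjusted p among the members, with log2 fold changes of 0.12 in livers and -2.71 in MEFs, a difference of 2.84 with an adjusted p of 0.0770 by the limma estimates. For Itgb7 the log2 fold changes were -0.49 in livers and 2.03 in MEFs, a difference of -2.51 with an adjusted p of 0.0838. Cdh1 followed with 0.52 in livers and -2.05 in MEFs, a difference of 2.57 with an adjusted p of 0.122. Itgb1 had 0.37 in livers and -0.17 in MEFs, a difference of 0.54 with an adjusted p of 0.170. Each of these 4 genes had fold changes of opposite sign in the tissues, but no difference passed. Without WT MEF 3 there were 9 members past this test, 6 with a higher effect in liver (Itga1, Itga5, Itga6, Itgav, Itgb1 and Cdh1) and 3 with a lower one (Itga4, Itgb7 and Cdh11), and the background was 14.6% of all genes higher and 15.5% lower. Without WT MEF 3 the adjusted p was 0.00137 for Itga1, 0.000525 for Itgb7, 0.00966 for Cdh1 and 0.00817 for Itgb1. Without WT MEF 3 and G2A liver 3 together 11 members passed, 7 with a higher and 4 with a lower effect in liver, and the background was 19.9% and 17.9%. Among the 4 was Cdh5, which passed the low-value filter in MEFs only through its G2A libraries.

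**Figure D4:**
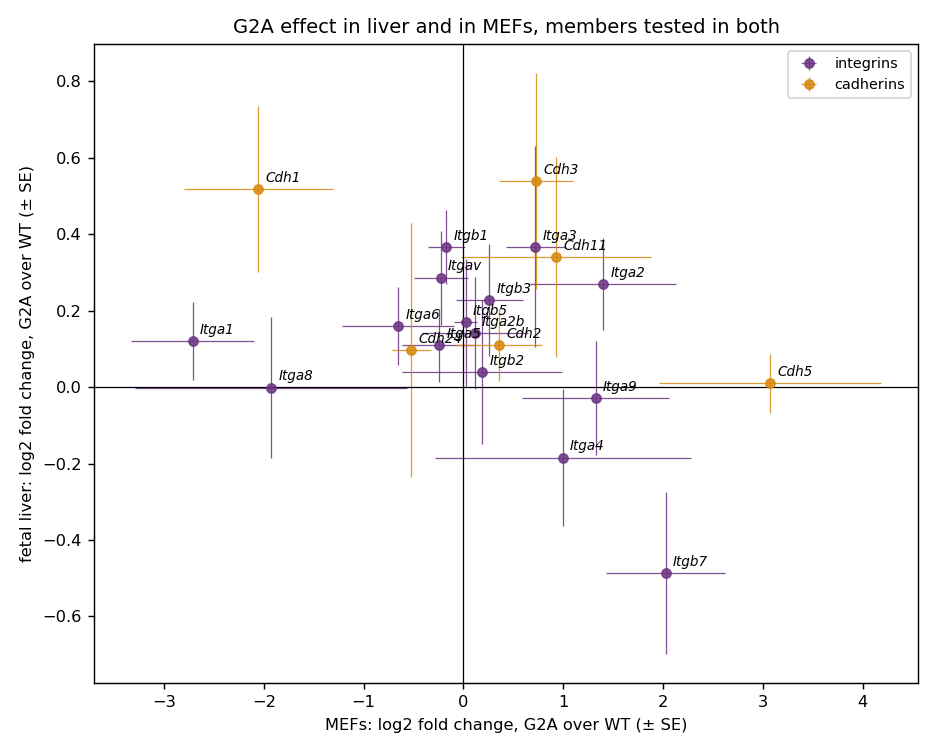
Log2 fold change of G2A over WT in livers (vertical axis) and in MEFs (horizontal axis), with SE as bars, for the 21 members tested in both, on the log2(value + 1) scale, with 1 point per gene and integrins and cadherins in separate colours. Fold changes span -0.49 to 0.54 in livers and a wider range in MEFs, from -2.71 for Itga1 to 3.07 for Cdh5. In MEFs Cdh5 passed the low-value filter only through its G2A libraries.

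Of the 21 members 10 had fold changes above 0 in both tissues, 1 (Itga8) below 0 in both, and 10 had opposite signs. In livers that of Itga8 was -0.0010, and 0.10 without G2A liver 3. Over all genes 52.7% were above 0 in livers and 51.6% in MEFs. The share of all genes with the same sign in both tissues was not counted. The tissues share no library, and none of these members passed in either tissue. Members lie on many chromosomes, with 9 on chromosome 8, 8 on chromosome 2 and 7 on chromosome 15.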

How the data were processed

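RNA from E12.5 livers and immortalized MEFs was sequenced by BGI. Per the labels' protocols, TopHat 2.1.1 mapped reads cut to 50 bp to mm9, and Cufflinks 2.2.1 and mm10 also stand in the submitters' processing notes. The liver values deposited by the authors were read as FPKM from the named tool and the values, since the header gives no unit. The MEF values deposited by the authors are a normalized signal: all were whole reads divided by 1 factor per library (within 0.01), and neither the source of these factors nor strand use is given in the sources used here. Overlapping genes are therefore uncertain. Columns were matched to samples by tissue, genotype and number.

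For livers and MEFs apart, limma 3.58.1 (R 4.3.3, variance trend) compared genotypes on log2(value + 1) for genes with at least 1 FPKM in 3 livers or 10 normalized reads in 2 MEF libraries. P-values were adjusted by Benjamini-Hochberg over all genes with a threshold of 0.05. The filter on MEF values was set after their unit was known. The tissues were compared by the difference of log2 fold changes with Satterthwaite degrees of freedom. The edgeR 4.0.16 quasi-likelihood test on recovered reads was an alternative, beside a pseudocount of 0.1, no filter or a stricter one, other scalings, library weights, a replicate block and leaving out each library. The fits were tested on simulated data. Members whose values are given are those with the smallest p or groups that did not overlap, and the chains of well-known receptors. Members were taken by symbol alone. The 2 families, the partner lists and the marker lists were chosen with earlier results of these data known, and some lists share genes. Exon lengths and positions came from NCBIM37, promoters from RefSeq.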

Additional observations from a re-analysis of the deposited data

How the results depend on the processing

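Counts of members passing limma depended most on the weight given to single libraries. In livers the integrins passing were 0 with every library, 7 with library weights and 0 to 5 without 1 library each, and the cadherins were 0, 3 and 0 to 1. In MEFs the integrins passing were 0, 15 with library weights and 0 to 8 without 1 library each, and the cadherins were 0, 7 and 0 to 4. Members past the test of the difference between tissues were 0, 1 after quantile scaling, 13 with library weights, 0 to 9 without 1 library each and 11 without G2A liver 3 and WT MEF 3 together, the last chosen after seeing the data. The liver integrin median was 0.18 with a pseudocount of 0.1 and 0.10 to 0.17 without 1 library each, and the liver cadherin median was -0.0039 without a filter and 0.13 to 0.52 without 1 library each. The MEF cadherin median was 0.31 without a filter, 0.13 with a stricter one and -0.29 with library weights. The MEF integrin median, 0.02 as reported, was -0.20 with a stricter filter, -0.11 without one, -0.064 after quantile scaling, -0.044 by edgeR and -0.14 to 0.055 without 1 library each, so its sign depends on the setting. The cause was not tested.

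Labels number the samples but do not say that equal numbers mark littermate pairs, so the numbers were not taken as pairs. Deviations of the same-numbered livers from their genotype mean correlated at 0.18, -0.10 and 0.10. With 3 livers per genotype, each centred on its own mean, these correlations cannot decide whether the numbers mark pairs. With a replicate block 0 liver members passed, and in MEFs 9 integrins and 5 cadherins passed, and 10 members in the difference. In MEFs the block leaves WT MEF 3 without a partner by construction.

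Only some members were followed over all settings, namely those without overlap, the highest ones and chains of well-known receptors. Among them, fold changes changed sign in 17 cases, over 6 genes, most of them near 0 as reported. Members outside this count changed sign too. In livers without G2A liver 3, Itga8 was 0.10, against -0.0010 as reported, and Itga9 was 0.084, against -0.029. In livers Cdh5 was -0.013 with median-ratio scaling and -0.036 to 0.060 without 1 library each, Itga2b was -0.076 with library weights, and Itgb2 was -0.047 after quantile scaling, -0.16 with library weights and -0.12 to 0.15 without 1 library each. In MEFs edgeR gave -0.044 for Itga2b, and Itgb2 was -0.14 after quantile scaling. For Itga4 in MEFs edgeR gave -0.037, against 0.99 as reported and 2.18 without WT MEF 3. Without 1 MEF library each, Itga2b was -0.34 to 0.51, Itgb2 -0.31 to 0.66, Itgb3 -0.083 to 0.60 and Itgb5 -0.070 to 0.11. Liver depth is unknown, and 2 G2A MEF libraries limit what MEFs can show.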
